A study of Mus musculus with 18 samples.

Results

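Transcripts of 10 neuronal genes, for vesicle release and for the growth cone at the tip of a growing neurite, were followed in Neuro2A (N2A) cells, a mouse neuroblastoma line. The genes are *Stx1a*, *Snap25* and *Vamp2* (the neuronal SNAREs), *Syt1* and *Syp* (synaptic vesicle membrane proteins), *Chga*, *Chgb* and *Scg2* (granins of dense core granules), and *Gap43* and *Stmn2* (growth cone proteins). They were chosen by name: every locus of the gene table whose symbol, split at commas, holds 1 of these 10 names was taken. This gave 11 loci for the 10 genes, of 52179 loci with a symbol and 168136 loci in all. None of the 11 loci is joined with another symbol. *Stx1a* has 2 loci with the same listed coordinates, chr5:135023482-135051260. The second of them held 20 reads (17.3 normalised counts) in whole cell control sample 2 and 0 in the other 17 samples, so it was left out of the tests, which kept 10 of the 11 loci and 15579 loci in all.

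The samples were RNA from 18 biotin pulldowns, 3 in each of 6 groups. Cells were transfected with a biotinylated mimic of *miR-92b* at 25 nM, with a biotinylated scrambled mimic (Scr) at 25 nM, or were left without a mimic (control), and the pulldown was made from a nuclear lysate or from a whole cell lysate. All samples are of the same wild-type line, and the controls carry no mimic, so Scr differs from the control by transfection as well as by the presence of a bait. The labels number the samples of a group from 1 to 3 and do not say that they come from separate cultures. The study describes its RT-qPCR check of such pulldowns as made on samples of repeated experiments, and of the sequenced samples it gives only how many there were per group. If these were not separate cultures, the p-values measure the spread between these samples, which may be technical. In such bulk material, fewer cells with a transcript and less of it per cell cannot be told apart.

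Regulated secretion works by fusion of vesicles with the plasma membrane. Syntaxin 1A and SNAP-25 on the plasma membrane zip together with VAMP2 (synaptobrevin) on the vesicle, and synaptotagmin 1 couples that step to calcium. Synaptophysin is an abundant protein of small synaptic vesicles, whereas the chromogranins and secretogranin II are packed, with hormones and neuropeptides, into dense core granules. GAP-43 is a membrane-attached phosphoprotein of the growth cone and stathmin 2 (SCG10) binds tubulin there, and both are widely used as signs of neurite growth. Neuroblastoma cells arise from the sympathetic lineage and make many of these proteins.

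The line's identity was checked with lineage markers. The 8 sympathetic markers reported here (*Phox2a*, *Hand2*, *Gata2*, *Gata3*, *Isl1*, *Th*, *Dbh* and *Mycn*) each averaged at least 10 normalised counts. Their sum lay between 4286 and 5833 normalised counts per sample, and the sums of astrocyte, oligodendrocyte, microglia, mesenchymal and endothelial markers (4 genes each) stayed at or below 238.6. Reads on loci with a symbol ran from 3752991 to 22920038 per sample, a 6.11-fold range. The nuclear RNAs *Malat1* and *Neat1* were higher in nuclear samples (log2 fold change 1.08 and 1.06), the locus holding *Meg3* did not pass (1.65, adjusted p = 0.15) and *Miat* was at 0 in 16 of 18 samples. The 4 cytoplasmic mRNAs (*Gapdh*, *Actb*, *Tubb5* and *Eef1a1*) were lower, with log2 fold changes from -2.15 to -3.53. The 6 markers called here passed the limma test described below. The *Neat1* and *Eef1a1* loci are each joined with a small RNA gene.

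Some samples stood apart in these fractionation markers. The 4 cytoplasmic mRNAs summed to 116659 normalised counts in whole cell *miR-92b* sample 3 against 28910 to 62499 in the other whole cell samples, and the 4 nuclear RNAs summed to 30440 there against 50718 to 79090. In nuclear Scr samples 2 and 3 the cytoplasmic sum was 10200 and 14240, against 3593 to 6028 in the other nuclear samples. These 3 samples were kept, and the compartment results were also computed without them. Their part in the treatment comparisons was not tested beyond leaving out each sample in turn.

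The bait pairs with RNA through its seed, bases 2 to 8, which are shown in capitals in the mature sequence because matches to them are what was searched for in the 10 transcripts. RefSeq places it on GRCm38.p6 at chr3:89227126-89227147, minus strand.
mmu-miR-92b-3p: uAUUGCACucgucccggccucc
Sites searched on the transcript strand were GTGCAAT, which pairs with bases 2 to 8, and TGCAATA, which pairs with bases 2 to 7 and has an A opposite base 1. The annotation was GENCODE mouse release 21 on GRCm38. A match lay in the 3′ UTR of *Chga*, *Gap43* and *Vamp2*, and in no 3′ UTR of the other 7 genes, and none of the 10 had a match in a coding sequence or 5′ UTR. The matches are shown with 10 bases on either side and with the match in capitals.
*Chga*: ggggcacaacTGCAATAacttctgacc
*Gap43*: aagtgtgtgtGTGCAATgttccgttct
*Vamp2*: gcatctgctaTGCAATAgcccctctcc
The *Chga* match is at chr12:102564926-102564932 (plus strand, exon 8), the *Gap43* match at chr16:42248661-42248667 (minus strand, exon 3) and the *Vamp2* match at chr11:69090989-69090995 (plus strand, exon 5). Matches of these kinds were in the 3′ UTR of 16.5% of the 10597 tested loci that hold a single coding gene, in the coding sequence of 9.46% and in the 5′ UTR of 1.12%. The longest annotated 3′ UTR of the 10 genes ran from 250 bases (*Chgb*) to 2890 bases (*Syt1*), so the chance of holding a match differs between them, and a match is a run of letters, not a measured site.

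The first comparison asks how these transcripts are divided between nuclear and whole cell pulldowns. *Snap25* alone of the 10 was called higher in the nuclear samples, by 1.58-fold, while *Scg2* (2.24-fold), *Gap43* (2.07-fold) and *Stmn2* (2.0-fold) were lower there. The other 6 loci did not pass the test, *Syp* narrowly. In all, 4 of 10 loci were called, 1 higher and 3 lower, averaging over the 3 treatments. Among all 15579 tested loci 31.0% were called, 15.3% higher and 15.8% lower in nuclear samples, so the share of called members is close to that of loci at large. The test was limma on log2(normalised count + 1) with Benjamini-Hochberg adjustment over all tested loci at 0.05, and fold changes are on that scale unless FPKM, edgeR or DESeq2 is named. The median log2 difference was -0.21 for the 10 loci and 0.14 for all tested loci.

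*Snap25*, the plasma membrane SNARE with a pair of helices in the fusion complex, lies at chr2:136713453-136782707. Its normalised read counts in nuclear samples 1 to 3 were 3618, 3708 and 3034 for the control, 3445, 3038 and 3931 for Scr, and 3299, 3331 and 3934 for *miR-92b*. In whole cell samples they were 2219, 2023 and 2260 for the control, 2398, 2540 and 2515 for Scr, and 2448, 2229 and 1358 for *miR-92b*. All 9 nuclear samples lay above all 9 whole cell samples, and whole cell *miR-92b* sample 3 was the lowest of the 18. This log2 difference was 0.66 (SE 0.11, adjusted p = 5.6e-05), and it was 0.58 without the 3 samples that stood apart. It was higher than for 72.3% of tested loci.

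*Vamp2*, the vesicle SNARE, at chr11:69088490-69093398, did not pass the test. Its counts ran from 202.6 to 334.6 in nuclear samples (median 258.5) and from 154.9 to 395.2 in whole cell samples (median 313.4). They differed by -0.19 on the log2 scale (95% interval -0.52 to 0.14, adjusted p = 0.38). *Stx1a*, syntaxin 1A, was the weakest of the 3 SNAREs and the most scattered in whole cell samples. Nuclear samples held 56.4 to 115 normalised counts (37 to 341 reads) and whole cell samples 8.92 to 159 (14 to 181 reads). The log2 difference of 0.53 had a 95% interval from -0.45 to 1.51, and without the 3 samples that stood apart it was 0.02. Without whole cell *miR-92b* sample 3 alone, the lowest value, it was 0.14.

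*Syt1*, the calcium sensor of fast release, did not pass the test either. Nuclear samples held 1736 ± 151 normalised counts and whole cell samples 1931 ± 318 (SD, n = 9 each), with a log2 difference of -0.14 (95% interval -0.35 to 0.07, adjusted p = 0.31). *Syp* had 54.0 to 75.4 normalised counts as nuclear group means and 88.9 to 173 as whole cell group means. Its log2 difference was -1.30 (SE 0.50, adjusted p = 0.051), the largest of the 10 in limma, whereas in edgeR (-0.95) and DESeq2 (-0.96) it was behind *Scg2*, *Gap43* and *Stmn2*. The values of *Syp* show why the error is wide. Nuclear Scr samples held 89.9, 132 and 2.52 normalised counts, and the third of these rests on 2 reads. Without nuclear Scr sample 3 the difference shrank to -0.74 (adjusted p = 0.052), and 5 of 13 other settings, or leaving out nuclear Scr sample 1, nuclear Scr sample 2 or whole cell *miR-92b* sample 2, brought it past the threshold.

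Of the granins, *Scg2* was lower in nuclear samples and the chromogranins were not called. *Scg2*, which encodes secretogranin II, lies at chr1:79434669-79440120. Nuclear samples 1 to 3 held 342, 239 and 408 normalised counts in the control, 334, 157 and 435 in Scr, and 377, 256 and 378 with *miR-92b*. In whole cell samples the counts were 764, 866 and 699 for the control, 662, 751 and 643 for Scr, and 647, 338 and 1215 for *miR-92b*. Of the 9 whole cell samples, 8 lay above every nuclear sample, the exception being *miR-92b* sample 2. Nuclear over whole cell, the log2 difference was -1.16 (SE 0.21, adjusted p = 1.6e-04), and -0.93 without the 3 samples that stood apart.

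*Chgb*, chromogranin B, went the other way in value without passing the test. Its counts were 559 to 1182 in nuclear samples and 560 to 798 in whole cell samples, a log2 difference of 0.29 (SE 0.14, adjusted p = 0.13). Of the 9 nuclear samples 4 lay above every whole cell sample, among them nuclear Scr samples 2 and 3 at 1182 and 1170. Without the 3 samples that stood apart the difference was 0.03. The call also moved with the scaling, since the locus passed when samples were set to the same median (0.38, adjusted p = 0.041) or quantile normalised (0.38, adjusted p = 0.042) and when nuclear Scr sample 1 was left out (0.41, adjusted p = 0.015), and the FPKM table gave the opposite sign (-0.13). *Chga*, chromogranin A, ranged from 146 to 384 normalised counts in nuclear samples and from 159 to 407 in whole cell samples, with a log2 difference of -0.23 (95% interval -0.64 to 0.18, adjusted p = 0.40). On FPKM it was -0.67 and passed (adjusted p = 0.048).

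Both growth cone genes were lower in the nuclear samples by about the same amount. *Gap43*, at chr16:42247419-42340651, had 133, 151 and 117 normalised counts in nuclear control samples 1 to 3, 122, 153 and 208 in nuclear Scr samples, and 112, 142 and 120 in nuclear *miR-92b* samples. The whole cell counts were 279, 292 and 289 for the control, 239, 214 and 261 for Scr, and 244, 311 and 525 for *miR-92b*. All 9 nuclear samples lay below all 9 whole cell samples, though the highest nuclear value (208, Scr sample 3) and the lowest whole cell value (214, Scr sample 2) nearly met. On the log2 scale the difference was -1.05 (SE 0.19, adjusted p = 1.4e-04), and -1.07 without the 3 samples that stood apart.

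*Stmn2*, at chr3:8509360-8562836, held 309, 448 and 639 normalised counts in nuclear control samples, 384, 543 and 405 in nuclear Scr samples, and 359, 367 and 480 in nuclear *miR-92b* samples. In whole cell samples it held 940, 893 and 1057 for the control, 803, 635 and 1093 for Scr, and 528, 550 and 1695 for *miR-92b*. Here 7 nuclear samples lay below every whole cell sample and the groups overlapped through nuclear control sample 3 and nuclear Scr sample 2. The difference of *Stmn2* was -1.0 on the log2 scale (SE 0.19, adjusted p = 3.5e-04), and -0.88 without the 3 samples that stood apart. *Snap25* and *Gap43* were thus the 2 of 10 loci whose compartments did not overlap at all, a pattern seen for 7.32% of tested loci. The size of the differences was below that of the cytoplasmic markers, whose smallest was -2.15.

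**Figure D1:**
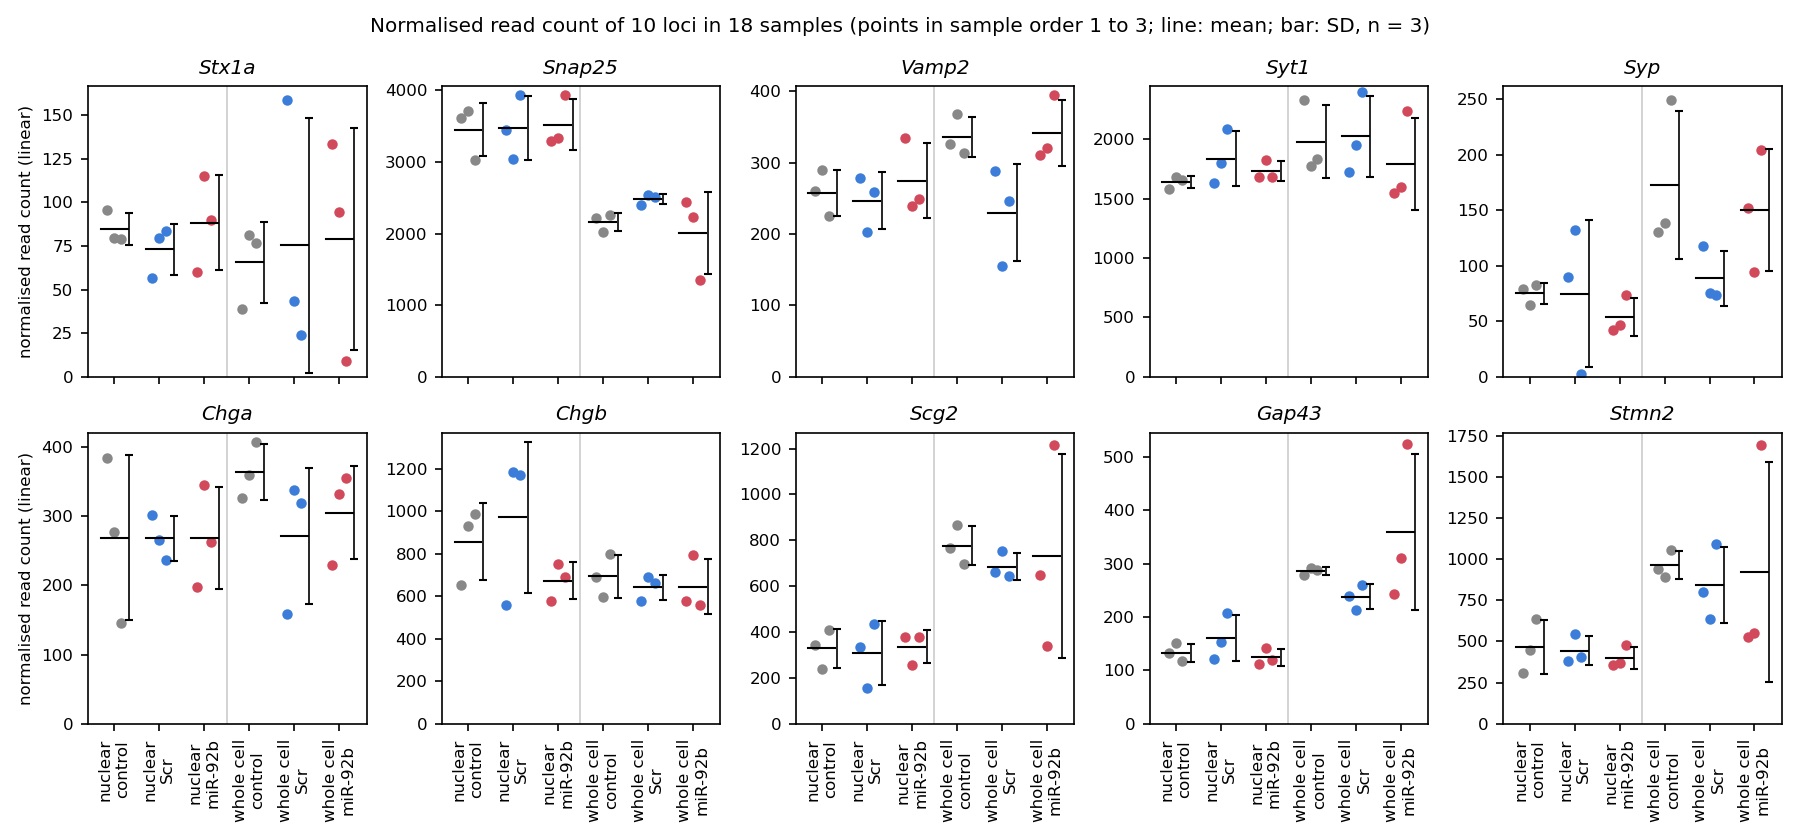
Normalised read count (linear axis from 0) of 10 loci, 1 panel each, in the 6 groups of 3 samples; points are samples, lines are means and bars are SD. *Snap25* sits higher in every nuclear sample and *Gap43* lower, and whole cell *miR-92b* sample 3 is the highest point for *Gap43* (525), *Scg2* (1215) and *Stmn2* (1695).

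**Figure D2:**
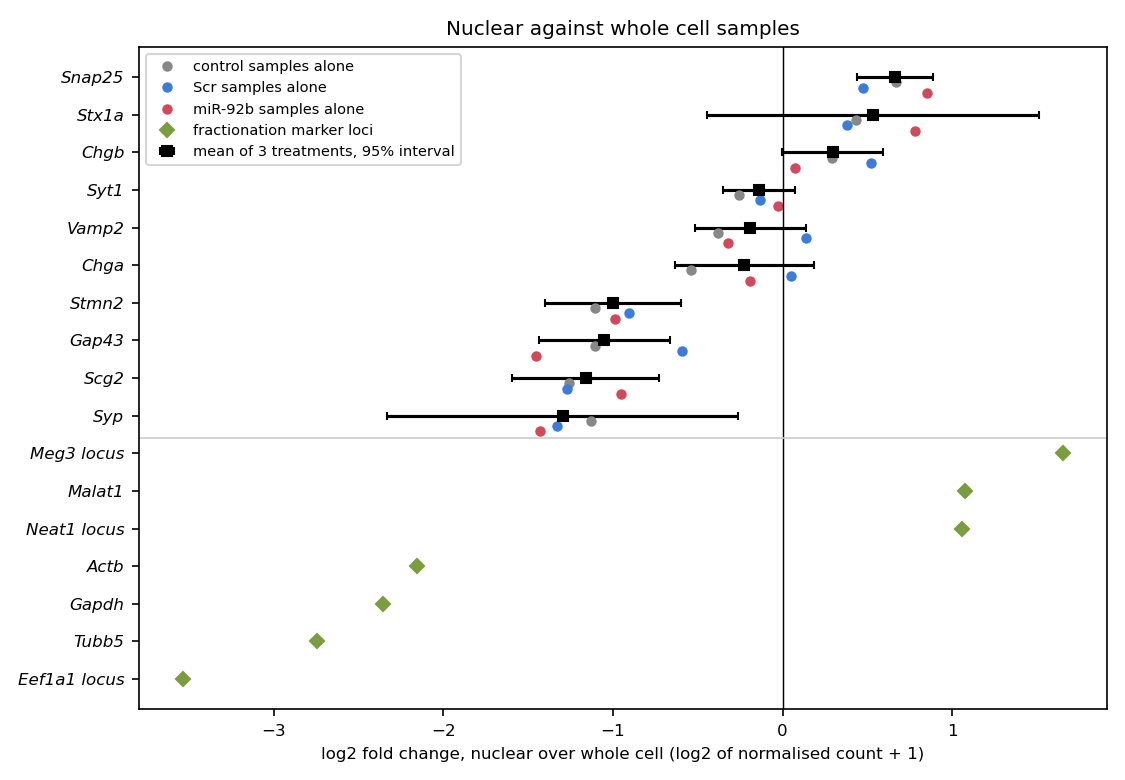
Log2 fold change of nuclear over whole cell samples; black squares with 95% intervals are the mean over 3 treatments, coloured points are the single treatments, and green diamonds are fractionation markers. *Snap25* at 0.66 lies right of 0, *Stmn2*, *Gap43*, *Scg2* and *Syp* lie near -1, and the cytoplasmic markers lie further left, between -2.15 and -3.53.

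Taken treatment by treatment, the number called was the same in the control and lower with either mimic. In the control samples, which carry no bait, 4 of 10 passed, 1 higher and 3 lower, against 9.85% of all tested loci (2.94% higher and 6.91% lower). *Snap25* was higher in nuclear samples (0.67, adjusted p = 0.024), and *Scg2* (-1.26), *Stmn2* (-1.11) and *Gap43* (-1.10) were lower. On FPKM *Snap25* (0.40, adjusted p = 0.32) and *Scg2* (-1.29, adjusted p = 0.080) did not pass in the control. In edgeR *Stmn2* did not (-1.045, adjusted p = 0.051). In Scr samples *Scg2* alone was called (-1.27, adjusted p = 0.042; background 5.17%), and in *miR-92b* samples *Snap25* (0.85) and *Gap43* (-1.46) were (adjusted p = 0.0040 for each; background 13.3%). With *miR-92b*, *Scg2* and *Stmn2* passed as well in edgeR and DESeq2, *Snap25* did not pass on FPKM (adjusted p = 0.073), and neither *Snap25* (adjusted p = 0.092) nor *Gap43* (adjusted p = 0.052) passed when these 6 samples were fitted alone, with log2 differences as before (0.85 and -1.46). Loci whose 3 nuclear and 3 whole cell samples did not overlap were 7 of 10 in the control (38.1% of all tested loci), 4 of 10 in Scr (22.3%) and 4 of 10 with *miR-92b* (36.2%). *Snap25* (above) and *Gap43* and *Stmn2* (below) were among them in all 3 treatments, and in the control *Scg2*, *Syt1*, *Vamp2* and *Syp* were too, each lower in the nuclear samples. These counts moved when a sample was left out, which leaves 2 in its group. The control count of 4 fell to 0 when any whole cell control sample, or nuclear control sample 1 or 2, was left out, and to 3 without nuclear control sample 3, while the log2 differences stayed between 0.61 and 0.76 for *Snap25*, -1.01 and -1.19 for *Gap43*, -1.05 and -1.43 for *Scg2*, and -0.84 and -1.37 for *Stmn2*. *Scg2* was no longer called in the Scr comparison without nuclear Scr sample 2 (log2 difference -0.84) or without any 1 of the whole cell Scr samples (-1.20 to -1.31), and 2 loci were called without nuclear Scr sample 1. In the *miR-92b* comparison 4 were called without whole cell *miR-92b* sample 2. With each sample rescaled to a common median, the central log2 difference of all loci in the control comparison shifted from 0.06 to 0.18, and 3 members were then called.

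The *Gap43* difference between lysates ran from -0.59 in Scr to -1.46 with *miR-92b*. The difference between these values was -0.86 (95% interval -1.81 to 0.08, adjusted p = 0.70), so it did not exceed the spread between samples. The fractionation markers also varied by treatment. The median of the 4 cytoplasmic markers was -3.01 in the control, -1.71 in Scr and -2.93 with *miR-92b*. That of the 3 tested nuclear marker loci was 1.09, 0.77 and 1.37. Whether the *Gap43* values go with the fractionation was not tested. For none of the 10 loci did the nuclear to whole cell difference pass when *miR-92b* and Scr were compared (background 0.00642%), and 0 of them had an unadjusted p under 0.05, against 1123 of all loci.

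The second comparison, the one the pulldown was designed for, sets *miR-92b* against Scr within each lysate. None of the 10 loci was called in either lysate. In nuclear samples limma called 0 of 15579 loci (0.00%), with 687 loci and 0 members at an unadjusted p under 0.05. Without nuclear Scr sample 1 it called 49 loci, none of them a member. No member had groups that did not overlap, which 10.1% of tested loci had. The log2 differences of the 10 loci ran from -0.46 for *Chgb* to 0.61 for *Syp*. The *Syp* value rests on nuclear Scr sample 3 with its 2 reads. *Syp* held 42.3, 46.5 and 73.3 normalised counts with *miR-92b*, all below Scr samples 1 and 2, and the sign turned without Scr sample 3 (-1.04), in edgeR (-0.44) and in DESeq2 (-0.49). *Chgb* had 578, 753 and 689 normalised counts with *miR-92b* against 559, 1182 and 1170 with Scr, so the groups overlapped through Scr sample 1 (95% interval -0.97 to 0.06). *Snap25* differed by 0.02 (-0.36 to 0.41) and *Syt1* by -0.08 (-0.45 to 0.29), the narrowest intervals of the 10. For *Stx1a* the interval was -1.45 to 1.94 and for *Syp* -1.18 to 2.40, so changes of about that size in these loci were not detectable here.

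In whole cell samples limma called 1 of 15579 loci (0.00642%) and no member, with 1515 loci at an unadjusted p under 0.05. Without *miR-92b* sample 1 it called 77 loci, again no member. The member among these 1515 was *Vamp2*. Its counts were 310, 320 and 395 with *miR-92b* against 288, 155 and 246 with Scr, so the groups did not overlap, which held for 8.92% of tested loci. They were 0.61 higher on the log2 scale (SE 0.27, adjusted p = 0.49). Against the untransfected control, with counts of 326, 368 and 313, the same *miR-92b* samples differed by 0.02 (95% interval -0.55 to 0.59). *Gap43* was 0.52 higher in value with *miR-92b* (95% interval -0.14 to 1.19) and *Snap25* -0.35 (-0.74 to 0.04), and the most extreme *miR-92b* count of each was that of sample 3. Without that sample the differences were 0.22 for *Gap43* and -0.088 for *Snap25*, and without Scr sample 2 that of *Vamp2* was 0.35. Over all samples left out in turn, *Gap43* ran from 0.22 to 0.77, *Snap25* from -0.51 to -0.088 and *Vamp2* from 0.35 to 0.80. The edgeR and DESeq2 tests on whole reads recovered from the normalised counts also called 0 members in either lysate, and DESeq2 called 176 loci in the whole cell comparison.

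The 3 genes with a seed match had values of mixed sign in nuclear samples and above 0 in whole cell samples, none past the test. Between *miR-92b* and Scr, *Chga* differed by -0.03 in nuclear and 0.22 in whole cell samples, *Gap43* by -0.34 and 0.52, and *Vamp2* by 0.15 and 0.61, all on the log2 scale. The 7 genes without a match ran from -0.46 (*Chgb*) to 0.61 (*Syp*) in nuclear samples and from -0.35 (*Snap25*) to 0.72 (*Syp*, 95% interval -1.08 to 2.51) in whole cell samples, so the highest limma value in either lysate was that of a gene without a match, in nuclear samples one that turned in sign without Scr sample 3. *Chga* counts were 198, 345 and 262 against 302, 265 and 237 in nuclear samples, and 229, 331 and 354 against 159, 337 and 318 in whole cell samples. In both lysates the *Chga* groups overlapped, and the whole cell value fell below 0 without Scr sample 1 (-0.13).

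Comparisons with the untransfected control gave no called member either. These share the control samples with each other, so their values are given side by side only. For *miR-92b* over control the 10 log2 differences ran from -0.51 (*Syp*) to 0.08 (*Syt1* and *Vamp2*) in nuclear samples and from -0.33 (*Stx1a*) to 0.25 (*Gap43*) in whole cell samples. Both of these whole cell values turn in sign without *miR-92b* sample 3, *Stx1a* to 0.84 and *Gap43* to -0.057, and *Stx1a* was at 0.24 in edgeR and 0.27 in DESeq2. For Scr over control they ran from -1.12 (*Syp*) to 0.24 (*Gap43*) in nuclear samples and from -0.92 (*Syp*) to 0.20 (*Snap25*) in whole cell samples. The nuclear *Syp* value again rests on Scr sample 3, being 0.53 without it, -0.028 in edgeR and 0.0030 in DESeq2. Limma called 0.00% of loci in each of these but whole cell *miR-92b* over control (0.00642%), with 0 members at an unadjusted p under 0.05 except *Vamp2* in whole cell Scr over control (-0.59, adjusted p = 0.96), and edgeR and DESeq2 called 0 members as well. Over all loci 50 to 916 had an unadjusted limma p under 0.05. DESeq2 called 21 loci for whole cell *miR-92b* over control and 37 for whole cell Scr over control. It called 0 in nuclear samples for *miR-92b* or Scr over control. *Syt1* was the only member whose nuclear *miR-92b* samples (1684, 1827 and 1683) did not overlap the nuclear controls (1581, 1682 and 1656), though the nearest samples all but met; such separation was seen for 7.48% of tested loci. In whole cell *miR-92b* (8.01%) and nuclear Scr (8.66%) against the control no member did so. In whole cell Scr over control *Snap25* was above, and *Vamp2*, *Gap43* and *Syp* below, every control sample, 4 of 10 loci against 13.5% of all tested loci. None of the 4 was called.

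**Figure D3:**
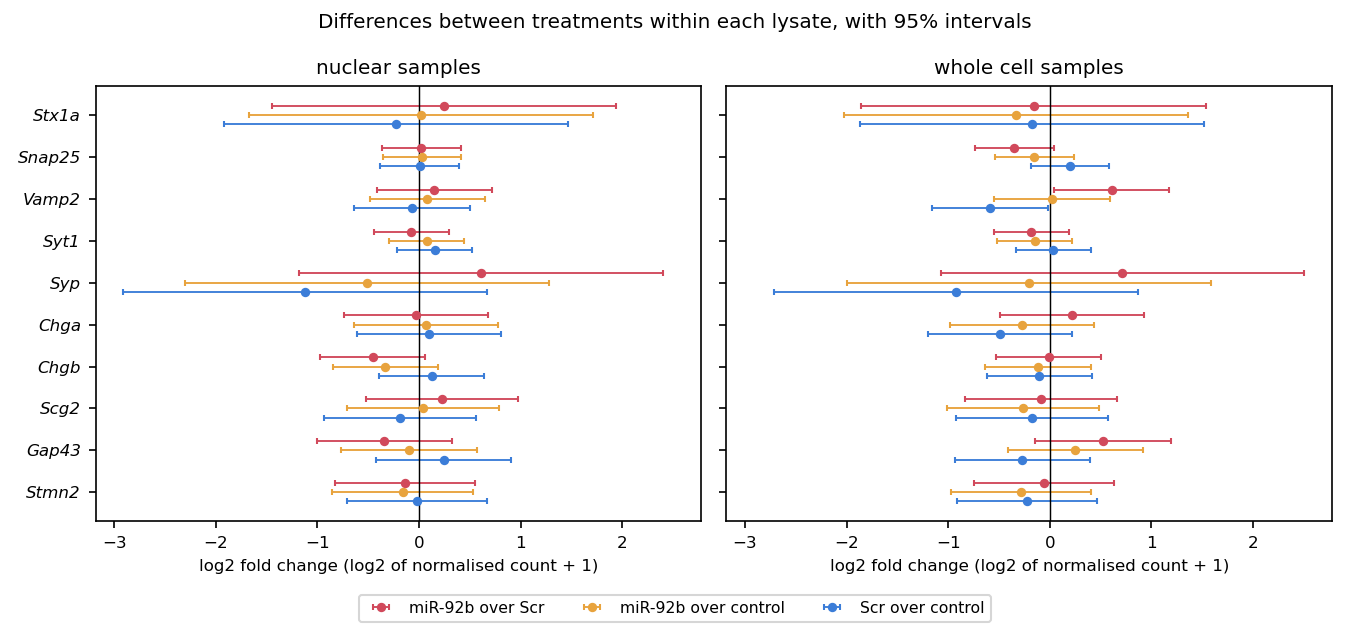
Log2 fold change between treatments with 95% intervals for 10 loci, in nuclear samples (left) and whole cell samples (right). Nearly all intervals span 0, those of *Stx1a* and *Syp* are the widest, and the whole cell *Vamp2* interval for *miR-92b* over Scr (0.04 to 1.18) lies to the right of 0 without passing the adjusted test.

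Levels between genes were compared per transcript length, with the FPKM values the authors deposited. Over the 18 samples *Syt1* (54.5 ± 7.28 FPKM, SD), *Snap25* (51.7 ± 11.1) and *Stmn2* (44.0 ± 27.0) led, followed by *Gap43* (24.6), *Scg2* (21.6), *Vamp2* (16.7), *Syp* (14.9), *Chga* (10.5) and *Chgb* (9.28). The tested *Stx1a* locus was the lowest at 4.80 ± 3.40. Every locus overlapped its neighbour in this order. The order changed with the lysate: *Snap25* led in each nuclear group, at 57.9, 62.3 and 59.3 FPKM in control, Scr and *miR-92b*, and overlapped *Syt1* in each. In whole cell control samples *Stmn2* led with 68.0 ± 3.06, and it overlapped *Syt1* (56.1 ± 9.03), which lay above *Snap25* (43.7 ± 6.41) in every sample. *Gap43* was at 10.7 to 12.6 FPKM as nuclear group means and at 32.0 to 43.6 as whole cell group means.

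Of the plasma membrane SNAREs, the tested *Stx1a* locus was last in each of the 6 groups. *Snap25* led in the nuclear groups and held rank 3 or 4 in the whole cell groups. The second *Stx1a* locus, left out of this order, averaged 17.2 FPKM in whole cell control samples, all of it from sample 2. *Syp* had an SD above its mean on this scale (14.9 ± 17.0 FPKM), with values from 0.112 in nuclear Scr sample 3 to 57.8 in a whole cell *miR-92b* sample, and its normalised counts ran from 2.52 to 249. When normalised counts were divided by the longest annotated coding transcript instead, *Snap25* came first (1348 per kb), *Syt1* second (380) and *Chgb* moved up from the ninth to the fourth place (272), and 3 of 10 loci kept their place.

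**Figure D4:**
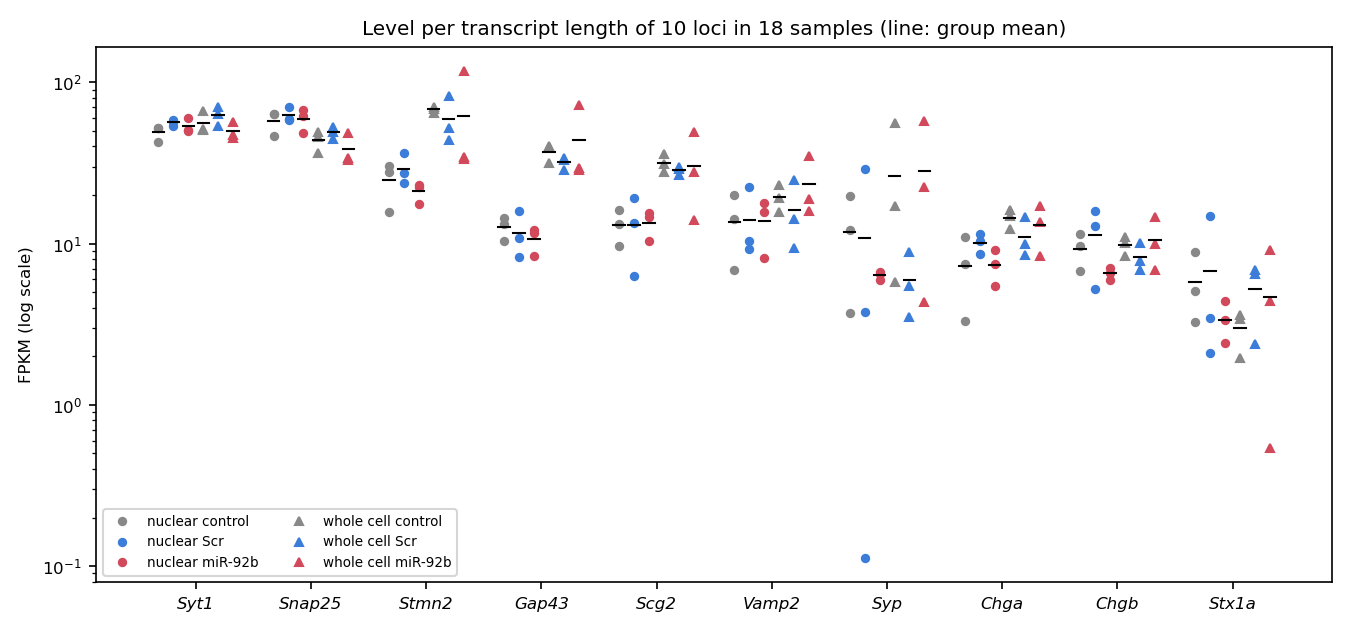
FPKM (log axis) of 10 loci in 18 samples, ordered by their mean; circles are nuclear and triangles whole cell samples, colours are treatments, and lines are group means. *Stmn2*, *Gap43* and *Scg2* show whole cell points above most nuclear points, and *Syp* spreads from 0.112 to 57.8.

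The 2 scales can be set against each other. A locus's normalised count divided by its FPKM is proportional to the transcript length the authors' software attributed to it. The factor in each sample came from loci with a symbol and a single annotated transcript of at least 1000 bases. Those with at least 50 reads in the sample were used, 872 to 2115 loci per sample. For *Syt1*, *Vamp2* and *Stmn2* this implied length was near the longest annotated coding transcript, for *Syt1* 4239 nucleotides in nuclear and 4686 in whole cell samples (medians, n = 9 each) against 4820. *Snap25*, *Chgb* and *Chga* were well above it, and *Syp* was below it. *Snap25* came to 7478 nucleotides in nuclear and 6692 in whole cell samples, 3.53 and 3.16 times the longest coding transcript of 2116. *Chgb* came to 12430 and 9984 nucleotides, 4.54 and 3.64 times the transcript of 2740. *Chga* came to 4601 and 3256 nucleotides, 2.44 and 1.73 times the transcript of 1883, and *Syp* to 1054 and 1156, which is 0.41 and 0.45 times the transcript of 2591. *Gap43* differed between lysates, with 1644 nucleotides in nuclear samples and 1004 in whole cell samples against 1420 annotated. The implied length comes from count over FPKM, so a shift in it between lysates means unlike differences on the 2 scales by construction. For *Gap43* the nuclear over whole cell value was -1.05 on counts and -1.65 on FPKM, and for *Snap25* 0.66 and 0.46. For *Chga* the values were -0.23 and -0.67, and for *Chgb* 0.29 and -0.13. *Vamp2* averaged 259.6 and 302.4 normalised counts in nuclear and whole cell samples, and 13.85 and 19.59 FPKM. What set these lengths was not tested.

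**Figure D5:**
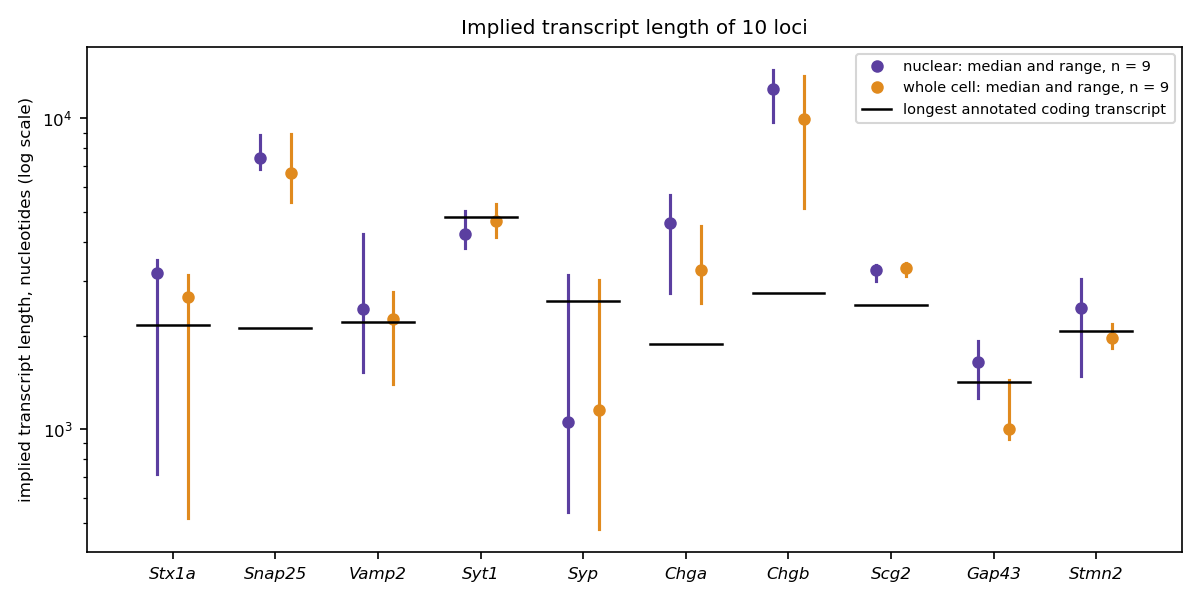
Transcript length implied by normalised count over FPKM (log axis, nucleotides) for 10 loci; points are medians and lines ranges over 9 nuclear or 9 whole cell samples, and black bars mark the longest annotated coding transcript. *Snap25* (7478 and 6692) and *Chgb* (12430 and 9984) lie well above their bars of 2116 and 2740, and *Syt1* lies near its bar.

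Annotation overlaps bear on some of the loci. *Snap25* overlaps the pseudogene *Gm14053*, *Syt1* the gene models *Gm5136*, *Gm47472* and *Gm47477*, *Syp* the antisense gene *Gm14703*, and *Gap43* the miRNA gene *Mir6540*. *Gm5136* and *Gm47477* are on the same strand as *Syt1*, and *Mir6540* on that of *Gap43*, so strand cannot separate reads of these pairs. The other overlapping genes are on the opposite strand. The libraries were made with a kit that keeps strand, but whether strand was used in counting is not given in the sources used here. Reads of any of these pairs may therefore be shared. Gene span varied among the members from 3895 bases in *Vamp2* to 513333 in *Syt1*. In 5 bins by span of the 10597 tested loci that hold a single coding gene, the median nuclear over whole cell difference went from -0.23 in the shortest to 0.21 in the longest. Of the called members, *Scg2* is in bin 1, the shortest (median -0.23). *Snap25* and *Stmn2*, called in opposite directions, are both in bin 4 (median -0.03). *Gap43*, with 98.5% of its span outside its longest transcript, is in bin 5, the longest. Whether span bears on these differences was not tested.

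Other genes of these pathways were read from lists of named genes. Of 26 tested loci for vesicle fusion and release, 5 were higher and 7 lower in nuclear samples (median log2 difference -0.24 against 0.14 for all tested loci). Beside this and the next 3 lists stand the shares over all tested loci, 15.3% higher and 15.8% lower. *Rims2*, an active zone scaffold, was higher by 0.69, *Vamp1*, a close relative of *Vamp2*, by 0.64 and 1 of 2 tested *Syt9* loci by 0.65, the other being at -0.96 (adjusted p = 0.48). Lower were *Cplx1* (-1.64, a locus joined with *Gm43364*) and *Cplx2* (-0.66), the complexins that clamp SNARE complexes, and *Vamp3* (-1.32), the SNARE of recycling endosomes. Of 12 tested synaptic vesicle loci 0 were called higher (1 at an unadjusted p under 0.05, and 0 by edgeR and DESeq2) and 4 were lower (median 0.05), among them *Sv2c* (-0.39), *Dnajc5* (-0.46) and *Syn1* (-1.45), which encodes synapsin I.

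Dense core granule loci had 5 of 11 lower and 0 higher (median -0.41), also 0 higher at an unadjusted p under 0.05 or by edgeR and DESeq2. *Pcsk1n* (-2.88), *Scg3* (-1.33, a granin relative) and *Cpe* (-2.25, the carboxypeptidase that trims prohormones) had the smallest adjusted p, and *Scg2* at -1.16 was nearer 0 than these 3. In the growth cone and neurite list, 2 of 21 tested loci were higher and 10 lower (median -0.38). *Dpysl3* (-1.22), *Basp1* (-2.30, like *Gap43* a membrane-attached growth cone protein) and *Marcksl1* (-2.39) were lower. *Map1b* (0.36), a microtubule protein, and *Stmn4* (0.88), a paralog of *Stmn2*, were higher. The stathmin family was therefore split, with *Stmn2*, *Stmn3* (-1.83) and the locus holding *Stmn1* (-0.93) lower. Between *miR-92b* and Scr, 0 loci of these 4 lists were called by limma, edgeR or DESeq2 in either lysate, with 0 to 2 loci per list at an unadjusted limma p under 0.05.

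The members did not share a single pattern over the 18 samples. Pearson's correlation of each member with the mean of the standardised members ran from -0.76 for *Snap25* to 0.87 for *Gap43* (a description over 18 samples that differ in lysate and depth, with each member part of that mean). Among loci outside the members and lists, those most like the mean were *Oaz2* (0.93), *Fam3c* (0.90), *Bpnt1* (0.89), *Mpnd* (0.89) and *Canx* (0.89). Being chosen for that likeness, these 5 are lower in nuclear samples as the mean is, with log2 differences from -0.84 for *Mpnd* to -1.77 for *Canx*.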

How the data were processed

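Per the labels and the study's methods, poly(A) RNA was taken with oligo-dT, libraries were directional (NEBNext), and reads were trimmed with Trimmomatic 0.30, mapped to GRCm38 (mm10) with TopHat2 and assembled with Cufflinks; the sources used here give neither versions of the latter tools nor the annotation release. Deposited by the authors were normalised counts per locus (a signal scaled by a factor per sample, not raw counts) and FPKM values. Of values above 0, 99.95% (634906 of 635205) were whole multiples of 1 read within 0.02 reads, and the smallest exception held 6609 reads, where the table prints too few digits; the recovered reads gave the depth. The authors' 5 tables of their own fold changes and p-values were not used.

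The 10 member genes and all gene lists were chosen with earlier results of these data known. Loci with a symbol and a mean of at least 10 normalised counts were tested with limma 3.58.1 (R 4.3.3) on log2(count + 1), with a trended variance, in 1 model of 6 groups without a replicate block, and Benjamini-Hochberg adjustment over 15579 loci at 0.05. A fold change on this scale understates the change of low loci. The 3 loci named per list and direction were those with the smallest adjusted p, and *Stmn1* and *Stmn3* were named after their values were seen; the 5 similar loci had the highest correlation. *Tubb3* of the growth cone list had no locus, and some markers of the sympathetic list are not reported here. Alternatives were other pseudocounts (0.5, 8), filters (1, 50, none), FPKM with a pseudocount of 0.1, same-median and quantile scaling, the compared groups alone, sample weights, a replicate block, edgeR 4.0.16, DESeq2 1.42.0, and leaving out each sample; leaving out 3 samples together was added after seeing the data. The script was tested on simulated data.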

Additional observations from a re-analysis of the deposited data

How the results depend on the processing

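The count of 4 called members over the 3 treatments stayed between 4 and 6 in 13 other settings and 18 fits without a sample, and *Snap25*, *Gap43*, *Scg2* and *Stmn2* passed in each of them. The count of 0 for *miR-92b* over Scr, *miR-92b* over control and Scr over control held in 13 settings and without each sample. Counts within a treatment moved. For the control (4 called) they were 2 without a filter, on FPKM and with quantile normalisation, 5 in the compared groups alone, and 0 to 3 without a sample. Calls lost were *Scg2* (-1.26) and *Stmn2* (-1.11) without a filter, and *Snap25* (0.40) and *Scg2* (-1.29) on FPKM. With quantile normalisation they were *Snap25* (0.59) and *Gap43* (-0.96). *Stmn2* was not called at the same median (-0.98) or in edgeR (-1.045), nor *Gap43* with a minimum mean of 1 (-1.10). For Scr (1 called) the counts were 0 without a filter, with sample weights and with edgeR (*Scg2* then at -1.27, -1.17 and -1.16), 2 in the compared groups alone, and 0 to 2 without a sample. For *miR-92b* (2 called) they were 1 on FPKM, 0 in the compared groups alone, 4 with edgeR and DESeq2, and 2 to 4 without a sample. The causes were not tested. With the replicate block the *miR-92b* count was 4. Whether the numbers pair the samples is not settled: same-numbered deviations correlated only from -0.04 to 0.11, but 11 of 18 samples correlated best with their own number. Per annotated length, 3 of 10 loci kept their place in the order of levels.

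Several values named in the text, none of them called, reversed. In the compartment comparison this was *Chgb* on FPKM (-0.13). For *miR-92b* over Scr in nuclear samples it was *Snap25* (-0.079) and *Stx1a* (-0.53) on FPKM, *Vamp2* (-0.0096) and *Syt1* (0.0011) with sample weights, and *Chga* (0.019, 0.054 and 0.0010) and *Syp* (-0.017, -0.44 and -0.49) with quantile normalisation, edgeR and DESeq2. Samples left out gave -0.068 to 0.12 for *Snap25*, -0.0011 to 0.24 for *Vamp2*, -0.16 to 0.016 for *Syt1*, -0.22 to 0.17 for *Chga* and -1.04 to 1.58 for *Syp*. In whole cell samples it was *Chga* with sample weights (-0.10; -0.13 to 0.41 over samples left out). For *miR-92b* over control it was nuclear *Vamp2* (-0.081; -0.071 to 0.17), whole cell *Gap43* (-0.041; -0.057 to 0.49) and whole cell *Vamp2* (-0.059; -0.087 to 0.089) with sample weights, *Vamp2* also in edgeR (-0.010), and whole cell *Stx1a* with quantile normalisation (0.083), sample weights (0.56), edgeR (0.24) and DESeq2 (0.27; -1.04 to 0.84 over samples left out). For Scr over control in nuclear samples it was *Syp* in DESeq2 (0.0030; -2.09 to 0.53 over samples left out) and *Gap43* on FPKM (-0.16). *Scg2* within Scr was not called on FPKM (adjusted p = 0.11), at a log2 difference of -1.26. Over all loci, *miR-92b* over Scr had 1 call in whole cell samples by limma and 176 by DESeq2, and 0 and 1 in nuclear samples. Nuclear Scr over control had 69 calls without nuclear Scr sample 1, against 0. DESeq2 gave no adjusted p for 4835 loci in the control comparison and for 18 in each other. As few as 14 reads of *Stx1a* and 2 of *Syp* were counted in a sample, and in neither case was this the shallowest sample.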

Other observations

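The second *Stx1a* locus, with 20 reads in whole cell control sample 2, had 51.5 FPKM there, above the 4.80 FPKM that the first *Stx1a* locus averaged over 18 samples. *Resp18*, a granule protein gene of the dense core list, was lower in nuclear samples (log2 difference -3.73), with group means of 1.02 to 14.1 normalised counts in nuclear and 46.9 to 82.6 in whole cell samples. Both *Resp18* and *Gata2* are named after their values were seen. *Gata2* has a pair of tested loci that were called in opposite directions between the compartments, *Gata2* alone at -0.47 and the locus joined with *Gm44246* at 0.47.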
